A study of Arabidopsis thaliana with 16 samples.

Results

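MYB proteins are plant transcription factors that bind DNA through imperfect repeats of the MYB domain. Members of the family are best known for switching on branches of secondary metabolism (flavonols, anthocyanins, glucosinolates), the lipid barriers of the plant surface (wax, cutin, suberin) and cell fate in the epidermis, and several act in stress and hormone signalling. In germinating seeds, the GAMYB-like members, which are held down by the microRNA miR159, and the wax regulators of the MYB96 class are known to take part in the response to abscisic acid (ABA), the hormone that delays germination.

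The members described here are the 83 genes, of 27655 in the deposited count table, whose description names a MYB transcription factor or a myb domain protein, without 3 circadian clock genes that carry such wording. Membership follows the wording of the table, not the family tree, so well-known members described in other words (MYB44, MYB65 and MYB4 among them) are not included. For 2 members, AT3G24490 and AT2G44730, the wording is that of an alcohol dehydrogenase transcription factor of a Myb/SANT-like type, and 81 members remain without them. All 83 gene identifiers were found in the RefSeq gene table of the TAIR10.1 assembly, from which the coordinates below are taken.

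The RNA came from whole seeds of Arabidopsis thaliana, wild type of the Col-0 strain, during germination. After 3 days of imbibition at 4 °C the seeds were kept at 22 °C under continuous light on plates of MS medium, a mineral medium for plants. They were moved into liquid MS at 24 hours after imbibition and harvested 6 hours later, at 30 hours. The 4 groups were a control with no compound named in the labels, 60 mM glucose, 5 µM ABA, and both compounds together, each with 4 libraries described as biological replicates. The labels name no osmotic control, so the sugar and the osmotic strength of glucose cannot be told apart.

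The 16 libraries held between 9360552 and 17794702 estimated counts, so that 3 counts correspond to between 0.171 and 0.325 CPM, the counts scaled to library size with TMM factors. Seed markers were present in every library: ICL, an enzyme of storage lipid use, lay between 13200 and 15100 deposited TPM (transcript levels corrected for library size and gene length), and EXPA2, an expansin of the seed endosperm, between 1090 and 1390. Of the markers for organs a seed should not hold, both root hair genes, EXPA7 and COBL9, were at 0 throughout, and the pollen genes LAT52-like and VGD1 reached at most 0.32 and 0.06 TPM. The pollen gene SKS13 was present at 4.82 to 6.08 TPM, and the photosynthesis genes RBCS1A and CAB1 at 1620 to 2170 and 9.57 to 29.9 TPM. ABA replicate 3 stood apart from the other ABA libraries, with the endosperm gene EPR1 at 363 TPM against 116 to 119 in the other 3. The other endosperm genes listed did not move with EPR1 by a like amount. EXPA2 was at 769 CPM in that library against 814 to 981, and MAN7 at 128 against 104 to 118. MAN5, at 4.98 CPM, lay within the 4.63 to 6.08 of the other ABA libraries.

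Most members had few or no counts in these seeds. No read was assigned to 26 of the 83 in any library, and 46 had a mean below 1 count per library. A count in at least 1 library was found for 57 of the 83 members and for 22613 of the 27655 genes in the table. A filter on low counts left 31 members to be tested and 52 untested, of which none exceeded 12 counts in a library. Over the whole table the filter kept 17083 genes and removed 10572. The anthocyanin regulator MYB75, the seed maturation regulator MYB115, MYB20, the aliphatic glucosinolate regulator MYB29 and the GAMYB-like MYB81 and MYB104 were among those with 0 counts throughout. MYB118, which acts in seed maturation, had 9 counts over all 16 libraries, the flavonol regulator MYB11 had 7, MYB102 had 3 and MYB9 had 2.

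The highest level per gene length among the members belonged to MYB101, a GAMYB-like factor, with a mean of 78.2 deposited TPM over all libraries, above 92.3% of the genes in the table. MYB77, a factor of auxin and ABA responses in roots, followed at 38.4 TPM and ranged from 34.2 to 51.2. AT2G44730 had a mean of 37.1 TPM, MYB30, a regulator of very-long-chain fatty acid and wax synthesis, 29.6, and AT3G24490 25.6. The second GAMYB-like factor, MYB33, had a mean of 25.2 TPM, and the indole glucosinolate regulator MYB34 one of 18.3. MYB106, which shapes leaf hairs and the cuticle, had a mean of 10.7 TPM. The ranges over libraries of MYB77, AT2G44730 and MYB30 overlapped, as did those of MYB30, AT3G24490 and MYB33, so the order among these neighbours is not resolved beyond the spread between libraries. MYB101 lay apart from MYB77, with its lowest library at 58.7 TPM, but AT2G44730 reached 66.8 TPM in ABA replicate 3. Among the less abundant members were the repressor-type cell cycle factor MYB3R3 at 8.73 TPM, the wax regulators MYB94 at 7.94 and MYB96 at 2.85, the flavonol regulators MYB12 at 2.74 and MYB111 at 1.59, and MYB74 at 0.712.

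**Figure D1:**
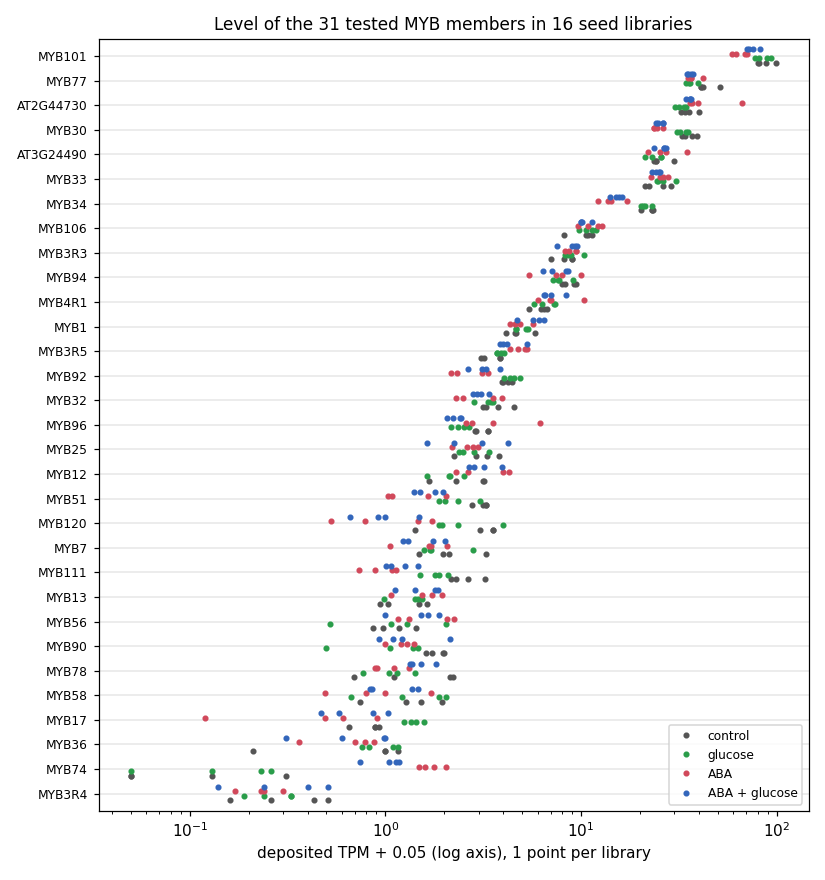
Deposited TPM plus 0.05 on a log axis for each of the 31 tested members, ordered by their mean over 16 libraries, with 1 point per library coloured by group. MYB101 stands at the top with a mean of 78.2 TPM, and MYB74 stands near the bottom with a mean of 0.712 TPM, its control points at the far left and its ABA points to their right.

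Sequences are shown for 3 GAMYB-like members and 2 flavonol regulators, whose transcripts are known targets of miR159 and miR858 and whose levels are compared below. The mature strands of the 2 main miR159 forms and of miR858a, read from the TAIR10.1 genome by the RefSeq annotation, are written 5′ to 3′ as DNA with bases 2 to 8, the seed, in capitals. The miR159 forms share 1 seed and miR858a has another.
ath-miR159a (chr1:27713234-27713254, minus strand): tTTGGATTgaagggagctcta
ath-miR159b-3p (chr1:6220813-6220833, plus strand): tTTGGATTgaagggagctctt
ath-miR858a (chr1:26773695-26773715, minus strand): tTTCGTTGtctgttcgacctt

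The stretches of the member transcripts that pair best with them all lie in coding sequence and are written 5′ to 3′ along the transcript, with capitals at the letters that form no Watson-Crick pair (a mismatch or a G:U pair). The first 3 pair with miR159a, and the last 2 with miR858a.
MYB101 (chr2:13783168-13783188, minus strand): tagagctTccttcaaAccaaa
MYB33 (chr5:1839579-1839599, plus strand): tGgagctcccttcaTtccaaT
MYB120 (chr5:22324982-22325002, minus strand): AGCagctcccttcaaAccaaa
MYB111 (chr5:19999866-19999886, minus strand): CaggAAgaacagacaacgaaa
MYB12 (chr2:19478416-19478436, plus strand): CaggGAgaacagacaacgaaa

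The site in MYB101 has 1 mismatch and 1 G:U pair, that in MYB33 has 2 mismatches and 1 G:U pair, and that in MYB120 has 3 mismatches and 1 G:U pair. Both flavonol regulators have 3 mismatches and no G:U pair to miR858a. The best sites in MYB13, MYB20 and MYB42 have the same numbers, so these do not set the flavonol regulators apart. A match is a description of the letters. Mature microRNAs were not measured here.

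ABA at 5 µM changed 10 of the 31 tested members relative to the control: 8 fell and 2 rose. MYB74, a member of the osmotic stress group, rose from near 0, and the repressor-type cell cycle factor MYB3R5 rose by 1.41-fold. The members that fell regulate indole glucosinolates (MYB34, MYB51), wax (MYB30), flavonols (MYB111), suberin (MYB92) and GAMYB-like functions (MYB101, MYB120), and MYB77 fell by a smaller amount. Here and below, "rose" and "fell" refer to an adjusted p below 0.05 from the quasi-likelihood F-test of edgeR, with Benjamini-Hochberg adjustment over the 17083 genes tested. Over all genes tested, 34.1% were called in this comparison, 16.1% higher and 18% lower. The share of tested members called lower was 25.8%, and its distance from that background was not tested. MYB74 passed the filter on low counts only through the groups that contain ABA, so nothing is read from the share called higher here or in the later comparisons with ABA. The median log2 fold change was -0.24 over the tested members and 0 over all genes. The RNA is from whole seeds, so fewer cells of a type and less RNA per cell cannot be told apart. Without ABA replicate 3, 3 members were called higher and 8 lower, and without ABA replicate 2, 4 were called higher.

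Glucose at 60 mM changed 1 member of 31, MYB77, which fell, while no member was called higher. The background was 11.3% of genes called, 3.85% higher and 7.49% lower. MYB77 was not called without control replicate 1 or without glucose replicate 2, 3 or 4 (adjusted p = 0.0515 to 0.0874). An unadjusted p below 0.05 was reached by 5 members, and DESeq2 also called 0 members higher. The median log2 fold change was -0.11 over the tested members and -0.01 over all genes.

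With ABA and glucose together, 6 members fell and 1 rose relative to the control, against 25.3% of all genes called, 11.2% higher and 14.1% lower. MYB74 rose, and MYB120, MYB111, MYB51, MYB34, MYB30 and MYB77 fell. This comparison and the 2 above share the control libraries, so their values are given side by side and not set against each other as independent results.

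**Figure D2:**
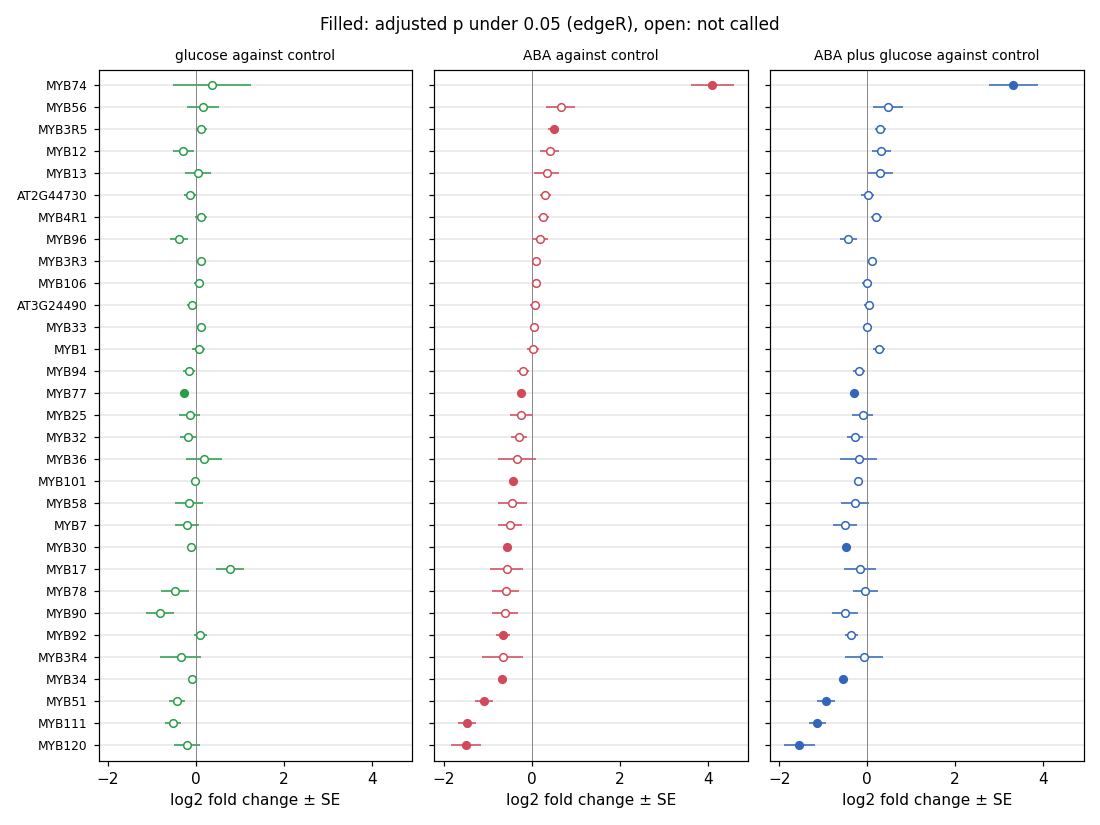
Log2 fold change with its standard error for the 31 tested members in each treatment against the control, ordered by the change with ABA; filled points have an edgeR adjusted p below 0.05. The filled points number 1 with glucose, 10 with ABA and 7 with both compounds.

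MYB74 (AT4G05100, chr4:2618372-2619947) belongs with MYB102 to a group of factors known from osmotic and salt stress, close relatives of which control suberin. Its estimated counts were 0, 3, 1 and 0 in the control libraries and 2, 0, 1 and 2 with glucose. With ABA they were 24, 16, 15 and 24, and with both compounds 12, 13, 9 and 14. Every library with ABA was above every library without it. On the CPM scale the means were 0.0809 ± 0.12 in the control, 0.113 ± 0.092 with glucose, 1.59 ± 0.22 with ABA and 0.925 ± 0.18 with both (SD, n = 4 each). The summed counts, scaled by library size, were 19 times as high with ABA as in the control (95% exact interval 7.13 to 71.4, which covers counting error only), and 11.1 times as high with both compounds (4.06 to 42.4). Set against glucose alone, the addition of ABA gave a ratio of 8.41 (3.36 to 27.1). The edgeR log2 fold change with ABA was 4.1 ± 0.49 (SE, adjusted p = 7.26e-07), a value that depends on the prior count because the control is near 0. MYB74 reached the cutoff of the filter on low counts in 4 libraries with ABA alone, 3 with both compounds, 0 control and 0 glucose libraries. It was thus tested through the groups where it is high, and its calls are no separate support for the rise. The change with ABA was called in all 14 alternatives. Its size ran from 1.91 with limma on log2 of TPM plus 0.5 to 5.4 without control replicate 2. That library held 3 of the 4 control counts. With both compounds the log2 fold change was 3.32 ± 0.55, called in all 13 alternatives that tested it, at 1.34 to 4.62 from the same 2 fits. With both compounds the summed counts of MYB74 were lower than with ABA alone, by a ratio of 1.71 (1.18 to 2.5). The 4 libraries with both compounds, 0.662 to 1.07 CPM, did not overlap the 4 with ABA alone, 1.37 to 1.88 CPM, but the edgeR log2 difference of -0.77 ± 0.3 was not called (adjusted p = 0.183). The difference between the ABA effect with and without glucose, the interaction, was -1.14 ± 0.98 (adjusted p = 0.57).

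The 300 bases before the annotated start of MYB74 are shown because MYB74 had the largest rise among the members. They were searched for the letters ACGTG, the core that ABA-responsive bZIP factors bind, on both strands, and the 1 match, which reads CACGT on the strand shown, is in capitals.
MYB74 upstream (chr4:2618072-2618371, plus strand, TAIR10.1): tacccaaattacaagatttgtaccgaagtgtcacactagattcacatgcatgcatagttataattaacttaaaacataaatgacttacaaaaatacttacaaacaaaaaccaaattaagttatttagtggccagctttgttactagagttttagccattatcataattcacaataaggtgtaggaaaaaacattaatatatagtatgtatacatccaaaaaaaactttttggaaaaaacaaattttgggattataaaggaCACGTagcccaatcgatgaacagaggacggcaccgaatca
The same letters occur on either strand in 25.6% of the 27443 windows of that length before protein-coding genes, and in 9 of the 31 windows before tested members, so the match does not set MYB74 apart. The window overlaps no other annotated gene.

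MYB92 (AT5G10280), a factor of suberin and root branching, was at 4.78, 4.49, 4.44 and 4.97 CPM in the control and at 2.57, 2.4, 3.68 and 3.45 with ABA. All ABA libraries lay below all control libraries, and the log2 fold change was -0.64 ± 0.16 (SE, edgeR adjusted p = 0.0027). With glucose it was at 4.5 to 5.48 CPM, and with both compounds at 2.94 to 4.34. In the presence of glucose, adding ABA gave a log2 fold change of -0.46 ± 0.15 (adjusted p = 0.0472), and MYB92 was called lower there too, but this call ended (adjusted p = 0.068) without the filter on low counts, with DESeq2 (0.102) and in 7 of the 8 fits without 1 of the 8 libraries compared. A transcript annotated on the same strand, AT5G10278, shares 10.1% of the exon bases of MYB92, and was not counted in the table. MYB15, a cold and defence factor, had too few counts to pass the filter on low counts and was not tested in the main fit. It had 0 counts over the 4 control libraries, which allows up to 0.062 CPM over that group, and 11 with glucose, 12 with ABA and 16 with both compounds, seen in 3, 4 and 4 libraries. MYB13 had means between 0.921 and 1.14 CPM, and its log2 fold change with ABA was 0.34 ± 0.28 (adjusted p = 0.369).

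Of the suberin enzymes, 2 of 8 were tested, FAR1 and KCS2, and both fell with ABA, with a median of -0.93 against 0 over all genes. With glucose alone FAR1 fell by 0.91 ± 0.079 on the log2 scale. Set against glucose alone, the addition of ABA left 1 of the 2 called, KCS2, at -1.03 ± 0.29. MYB92 itself was at 0.1 ± 0.15 with glucose alone and was not called (adjusted p = 0.707).

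**Figure D3:**
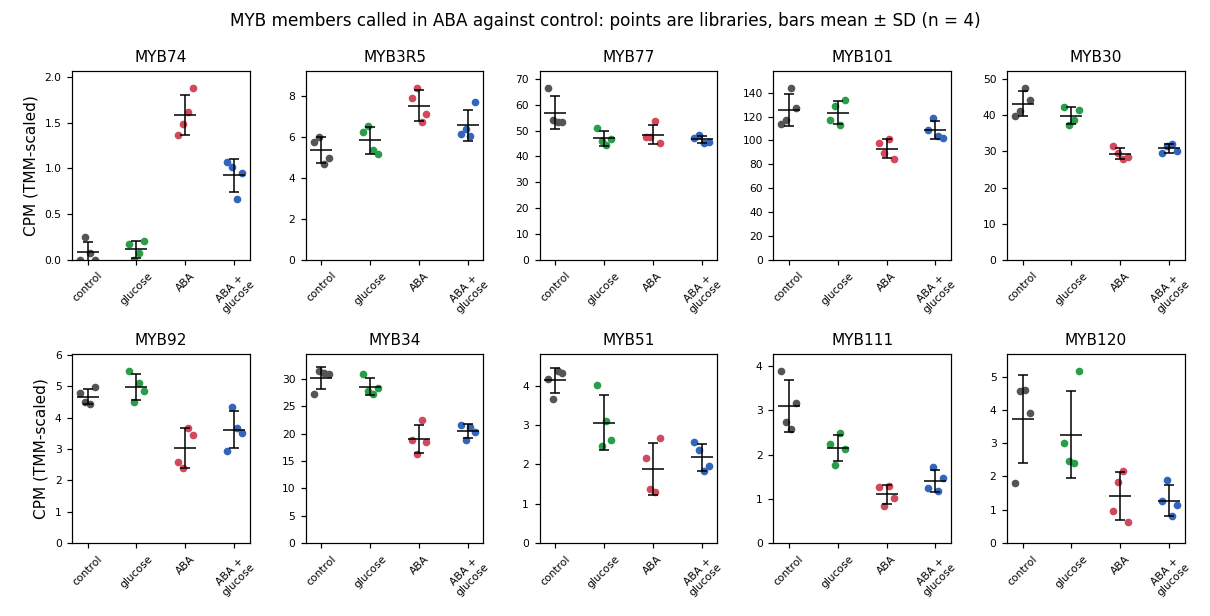
TMM-scaled CPM in each of the 16 libraries for the 10 members called in ABA against control, with black bars at the mean and SD of each group (n = 4). MYB74 lies near 0 in control and glucose and between 1.37 and 1.88 with ABA, while MYB30, MYB34 and MYB111 show all ABA libraries below all control libraries.

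The indole glucosinolates are defence compounds of the cabbage family, and MYB34 and MYB51 are activators of the genes that make them. MYB34 (AT5G60890, chr5:24494291-24496371) was at 27.2, 31.4, 31.1 and 30.8 CPM in the control and at 30.8, 27.8, 27.2 and 28.4 with glucose. It was at 18.9, 16.3, 22.5 and 18.4 CPM with ABA and at 21.6, 18.8, 21.2 and 20.2 with both compounds. The 8 libraries with ABA all lay below the 8 without it. The log2 fold change was -0.67 ± 0.085 with ABA (SE, edgeR adjusted p = 1.63e-06) and -0.56 ± 0.084 with both compounds (adjusted p = 2.29e-05). In the presence of glucose, the log2 fold change on adding ABA was -0.48 ± 0.085 (adjusted p = 0.000266).

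MYB51 (AT1G18570, chr1:6389399-6391386) was less abundant. It was at 4.18, 3.66, 4.37 and 4.33 CPM in the control and at 4.03, 2.47, 3.1 and 2.63 with glucose. It was at 2.17, 1.38, 1.3 and 2.67 CPM with ABA and at 2.58, 2.36, 1.84 and 1.96 with both compounds. The control libraries lay above all libraries with ABA, while the glucose libraries spanned the gap between them. Its log2 fold change was -1.08 ± 0.2 with ABA (adjusted p = 0.000232) and -0.93 ± 0.2 with both compounds (adjusted p = 0.00116). With glucose alone it was -0.43 ± 0.19 and missed the threshold (adjusted p = 0.158), as did the change on adding ABA to glucose, -0.5 ± 0.21 (adjusted p = 0.146). Another activator, MYB122, had 1 count in all.

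Of 11 glucosinolate genes listed, 8 were tested, and with ABA 7 fell and none rose, with a median log2 fold change of -0.81 against 0 over all genes. On the log2 scale SOT17, a sulfotransferase that completes the aliphatic compounds, fell by 2.42 ± 0.33. CYP79B3 and CYP79B2, which commit tryptophan to the indole branch, had log2 fold changes of -2.11 ± 0.3 and -1.12 ± 0.2, both called. CYP83B1, the next enzyme of the indole branch, fell by 0.77 ± 0.099. UGT74B1 was at -0.26 ± 0.1 and was not called (adjusted p = 0.0516), but it was called, and 8 of 8 fell, without ABA replicate 3. With glucose 5 of the 8 fell, with both compounds 7 fell, and CYP83B1 was the 1 gene lower with both compounds than with ABA alone, with a log2 difference of -0.41 ± 0.1. In the glucose comparison, where those 5 genes fell, MYB34 was at -0.08 ± 0.082 (edgeR adjusted p = 0.6). MYB51 was at -0.43 ± 0.19 (edgeR unadjusted p = 0.0363, adjusted p = 0.158). Neither was called, but the missing call does not show that MYB51 was unchanged. The part of either factor in these falls was not tested.

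Of the wax regulators, MYB30 was the 1 that was called. MYB30 (AT3G28910, chr3:10911132-10913190) was at 39.8, 41.1, 47.6 and 44.3 CPM in the control and at 42.3, 37.2, 38.8 and 41.4 with glucose. It was at 31.6, 29.6, 27.9 and 28.5 CPM with ABA and at 29.5, 31.6, 32.2 and 30.1 with both compounds. All 8 libraries with ABA lay below the 8 without it. The log2 fold change was -0.55 ± 0.071 with ABA (SE, edgeR adjusted p = 1.96e-06), -0.48 ± 0.07 with both compounds (adjusted p = 1.43e-05) and -0.37 ± 0.071 when ABA was added to glucose (adjusted p = 0.00066). MYB30 was thus lowered by 1.46-fold with ABA alone.

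MYB96 (AT5G62470), which raises wax synthesis in drought and ABA responses in seeds, was at 3.81, 4.07, 3.85 and 4.44 CPM in the control and at 3.26, 3.27, 3.02 and 2.73 with glucose. With ABA it was at 3.43, 3.69, 7.26 and 4.71 CPM, and with both compounds at 3.21, 3.23, 2.94 and 2.63. The libraries with both compounds lay below all those with ABA alone, and ABA replicate 3 was far above the other 3. The log2 fold change with ABA was 0.2 ± 0.18 (adjusted p = 0.437). The difference between both compounds and ABA alone was -0.62 ± 0.19 and narrowly missed the threshold (adjusted p = 0.0663), and without ABA replicate 3 it was -0.39 (adjusted p = 0.205). The endosperm gene EPR1 and AT2G44730 were high in the same library, while the endosperm gene EXPA2 was low there. The part of that library's makeup in these values was not tested.

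MYB94, which acts with MYB96 on wax genes, had means of 10.5 ± 0.86 CPM in the control, 9.44 ± 0.98 with glucose, 9.22 ± 2.2 with ABA and 9.15 ± 1.3 with both compounds (SD, n = 4). Its libraries overlapped between all groups, and the log2 fold change with ABA was -0.2, with a 95% interval from -0.49 to 0.09. MYB94 and MYB96 share a stretch of 135 bases at 94.8% identity, but the estimated counts of each had decimals, which divided reads leave, in 0 libraries.

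All 8 tested genes of the 10 on the wax list fell with ABA, with a median log2 fold change of -1.04 against 0 over all genes. CER1, the enzyme of wax alkane formation, fell by 3.03 ± 0.19 on the log2 scale. Of the fatty acid elongases, KCS1 fell by 1.67 ± 0.28 and KCS2 fell by 1.52 ± 0.27. CER2 fell by 1.14 ± 0.22 and CER3 fell by 0.93 ± 0.1, while KCR1 fell by 0.23 ± 0.059 and CER10 fell by 0.22 ± 0.067. With both compounds 7 of the 8 fell, and with glucose alone 2 fell, CER1 at -0.56 ± 0.14 and KCS6 at -0.54 ± 0.13 (log2). The interaction was called for CER1 alone on this list, at 1.02 ± 0.28 (adjusted p = 0.0388), so its fall with ABA was smaller in the presence of glucose. PDF1, a marker of the epidermis where wax is made, was called lower with ABA, at -0.41 ± 0.093, and ATML1, a second epidermal marker, was at -0.13 ± 0.061 (adjusted p = 0.103). The part of the epidermal cells in the wax values was not tested.

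MYB11, MYB12 and MYB111 activate the early flavonoid genes that lead to flavonols. MYB111 (AT5G49330, chr5:19998823-20001572) was at 3.89, 2.74, 2.59 and 3.17 CPM in the control and at 2.23, 1.77, 2.48 and 2.13 with glucose. It was at 1.26, 0.83, 1.3 and 1.02 CPM with ABA and at 1.25, 1.73, 1.18 and 1.48 with both compounds. The control libraries were the highest, the glucose libraries came next without overlap, and all libraries with ABA were lower still. Its log2 fold change was -1.47 ± 0.21 with ABA (SE, edgeR adjusted p = 9.06e-06) and -1.13 ± 0.2 with both compounds (adjusted p = 0.000179). With glucose alone it was -0.52 ± 0.19 and was not called (adjusted p = 0.0827), nor was the interaction of 0.87 ± 0.31 (adjusted p = 0.109).

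Its relative MYB12 was at 3.66, 1.91, 2.66 and 3.7 CPM in the control and at 4.97, 3.04, 2.6 and 4.63 with ABA. With glucose it was at 1.85 to 2.91 CPM and with both compounds at 3.12 to 4.57. The control and ABA libraries overlapped, and the log2 fold change with ABA was 0.41 ± 0.22 (adjusted p = 0.157), though without ABA replicate 3 it was 0.54 and just past the threshold (adjusted p = 0.0487). With all libraries in the fit, the change with ABA was called for MYB111 and not for MYB12, whose estimate does not settle a direction. MYB12 and MYB111 have sites with the same numbers of mismatches to miR858a in the sequences above. The part of that microRNA in their levels was not tested. The difference between these 2 genes was not tested.

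MYB90, an anthocyanin activator, was at 1.08 to 1.35 CPM in the control, 0.31 to 0.971 with glucose and 0.65 to 0.922 with ABA. Neither the change with glucose, -0.81 ± 0.32 (adjusted p = 0.105), nor that with ABA, -0.6 ± 0.3 (adjusted p = 0.132), was called. MYB90 is 94.7% identical to MYB114 over 263 bases, but MYB114 had 0 counts in all libraries. The estimated counts of MYB90 had decimals in 0 libraries. MYB7, a repressor of phenylpropanoid genes, was at -0.49 ± 0.28 with ABA (adjusted p = 0.183).

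Among 12 flavonoid genes listed, 7 were tested, and with ABA 5 rose and 1 fell, with a median log2 fold change of 0.73 against 0 over all genes. CHI, which closes the flavanone ring, rose by 1.88 ± 0.15, and FLS1, the flavonol synthase, by 0.92 ± 0.11. F3H rose by 0.73 ± 0.064 and CHS, the entry enzyme, by 0.7 ± 0.1. UGT78D1, a glycosyltransferase of flavonols, fell by 1.01 ± 0.079. With both compounds the counts were again 5 higher and 1 lower, and against ABA alone 3 of the 7 were lower. With glucose alone CHI fell by 0.81 ± 0.21, and no gene rose. In this comparison with ABA, where 5 of the 7 tested genes rose, MYB111 fell. MYB12 was at 0.41 ± 0.22 there and was not called (edgeR adjusted p = 0.157). The part of either factor in the changes of these genes was not tested.

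**Figure D4:**
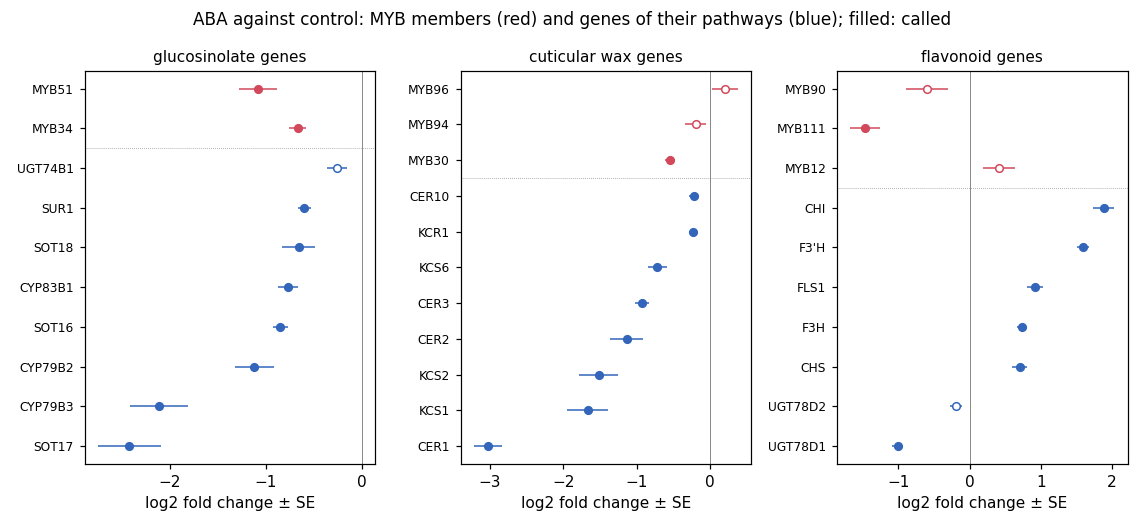
Log2 fold change with its standard error in ABA against control for members (red, top rows) and for listed pathway genes (blue), in 3 panels; filled points have an edgeR adjusted p below 0.05. The tested glucosinolate and wax genes all lie left of 0, from -3.03 for CER1 to -0.22 for CER10, while CHI at 1.88 lies furthest right in the flavonoid panel.

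The GAMYB-like factors carry the name of a gibberellin-induced activator of cereal grains, and in Arabidopsis they are restrained by miR159. MYB101 (AT2G32460, chr2:13782107-13784483), the most abundant member, was at 114, 117, 144 and 127 CPM in the control and at 117, 129, 113 and 134 with glucose. It was at 98, 89.1, 101 and 84.6 CPM with ABA and at 109, 119, 104 and 102 with both compounds. The ABA libraries lay below all libraries of the other 3 groups, while the libraries with both compounds overlapped the control. MYB101 fell with ABA by 1.35-fold, a log2 fold change of -0.43 ± 0.08 (SE, edgeR adjusted p = 0.00021). With both compounds the log2 fold change was -0.21 ± 0.08, just short of the threshold (adjusted p = 0.0561). It was called in 5 of 14 alternatives: with upper-quartile scaling (-0.24, adjusted p = 0.0242), in a fit of these 2 groups alone (-0.22, adjusted p = 0.0389), and without control replicate 1 or 2 or replicate 2 of both compounds. The adjusted p over all 14 ran from 0.0242 to 0.238. The difference between both compounds and ABA alone, 0.22 ± 0.08, was not called (adjusted p = 0.161), and neither was the interaction of 0.25 ± 0.11 (adjusted p = 0.233).

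MYB33 (AT5G06100, chr5:1837835-1840727) was at 36.5, 37.9, 45.2 and 49.7 CPM in the control and at 43.6, 45.1, 46.9 and 39.4 with ABA. With glucose it was at 42.0 to 52.8 CPM and with both compounds at 40 to 44.1. The groups overlapped, and the log2 fold change with ABA was 0.05, with a 95% interval from -0.15 to 0.25. A change of the size seen for MYB101 lies outside that interval.

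MYB120 (AT5G55020, chr5:22324599-22326418), which acts with MYB101 and MYB97 in the pollen tube, was at 1.79, 4.57, 4.59 and 3.91 CPM in the control and at 3, 2.47, 2.4 and 5.16 with glucose. It was at 0.971, 1.84, 2.17 and 0.627 CPM with ABA and at 1.25, 1.89, 0.809 and 1.15 with both compounds. Control replicate 1 lay within the range of the ABA libraries, and the other 3 control libraries lay above them. For MYB120 the log2 fold change was -1.49 ± 0.35 with ABA (adjusted p = 0.00201), -1.54 ± 0.35 with both compounds (adjusted p = 0.0019) and -1.33 ± 0.36 when ABA was added to glucose (adjusted p = 0.0147). The last of these was not called without glucose replicate 4 (-1.05, adjusted p = 0.0818) or without replicate 3 of both compounds (-1.16, adjusted p = 0.0628). The pollen marker SKS13 was at -0.04 ± 0.1 with ABA (adjusted p = 0.797), and the other pollen markers were near 0. A seed should not hold pollen, so these markers do not bear on the fall of MYB120. MYB97 had 19 counts over all libraries and was not tested.

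MYB77 (AT3G50060, chr3:18557607-18559326) was at 66.5, 54.2, 53.5 and 53.3 CPM in the control and at 51, 45.9, 44.3 and 46.6 with glucose. It was at 47.4, 47.4, 53.7 and 45.3 CPM with ABA and at 47.2, 48.4, 45.3 and 45.6 with both compounds. Apart from ABA replicate 3, every treated library lay below every control library. It fell in each treatment, with log2 fold changes of -0.28 ± 0.076 with glucose (SE, edgeR adjusted p = 0.0195), -0.24 ± 0.076 with ABA (adjusted p = 0.0182) and -0.29 ± 0.075 with both compounds (adjusted p = 0.0064). Adding ABA to glucose gave -0.01, with a 95% interval from -0.18 to 0.16. Control replicate 1 was the highest library, and without it the changes with glucose (-0.19, adjusted p = 0.0874) and with ABA (-0.14, adjusted p = 0.113) were not called. The call with ABA was also lost without ABA replicate 1 (-0.21, adjusted p = 0.0599) or 4 (-0.19, adjusted p = 0.0813) and in a fit of these 2 groups alone (-0.23, adjusted p = 0.0794).

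The MYB3R factors control genes of the G2 and M phases, MYB3R4 as an activator and MYB3R3 and MYB3R5 mainly as repressors. MYB3R5 (AT5G02320, chr5:482793-486473) was at 5.75, 5.99, 4.66 and 4.97 CPM in the control and at 7.88, 8.39, 6.71 and 7.14 with ABA. With glucose it was at 5.16 to 6.53 CPM and with both compounds at 6.03 to 7.69. All ABA libraries lay above all control and glucose libraries. MYB3R5 rose by a log2 fold change of 0.5 ± 0.13 with ABA (SE, edgeR adjusted p = 0.00358) and 0.3 ± 0.13 with both compounds, which was not called (adjusted p = 0.0895). A transcript of AT2G13960 is 99.5% identical to it over 207 bases, and the gene on the opposite strand, AT5G02310, shares 6.12% of its exon bases, so its counts are uncertain where reads were divided. MYB3R3 had means from 12.6 ± 1.4 to 13.6 ± 1.4 CPM (SD, n = 4), and its log2 fold change with ABA was 0.11 ± 0.1 (adjusted p = 0.434). MYB3R4 was at 0.236 to 1.16 CPM, near the filter, and was at -0.66 ± 0.47 with ABA (adjusted p = 0.296). Of 7 genes of the G2 and M phases listed, 2 were tested, CYCB1-1 at 0.03 ± 0.18 and CDKB2-1 at 0.19 ± 0.32 with ABA, and none was called in any comparison.

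Other members with a described role stayed below the threshold. MYB56, a regulator of seed size, was at 0.66 ± 0.33 with ABA (adjusted p = 0.136), and its libraries ranged from 0.464 to 2.17 CPM. MYB106 was at 0.11 ± 0.11 with ABA (adjusted p = 0.484), but a gene annotated on the opposite strand shares 76% of its exon bases, and reads of the 2 cannot be told apart without strand. The partners of MYB factors, bHLH proteins and TTG1, and the single-repeat MYB repressors counted 10 genes, of which 6 were tested. ETC1, a repressor of leaf hair formation, fell by 1.08 ± 0.18 (log2) with ABA, and the other 5 were not called. The partner EGL3 was at -0.27 ± 0.11 and missed the threshold (adjusted p = 0.0501). Without ABA replicate 3, 2 of the 6 were called lower with ABA, and 1 was called higher with both compounds than with ABA alone, where none had been called. Of the secondary wall genes, CESA4 and CESA7 were tested of 3 listed, at -0.05 ± 0.49 and 0.3 ± 0.28 with ABA, and neither was called in any comparison.

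AT2G44730 and AT3G24490, the 2 Myb/SANT-like members, were not called in any comparison with all libraries in the fit. AT2G44730 was at 35.6, 28.5, 30.1 and 31.4 CPM in the control and at 35, 31.5, 58.4 and 32.2 with ABA. ABA replicate 3 alone stood out, and the log2 fold change of 0.31 ± 0.13 with ABA (edgeR adjusted p = 0.0833) was 0.07 without that library (adjusted p = 0.476). It was called in 3 of 14 alternatives, all of which keep that library: without control replicate 1 (0.38, adjusted p = 0.0498), ABA replicate 2 (0.39, adjusted p = 0.0327) or ABA replicate 4 (0.4, adjusted p = 0.0295). AT3G24490 was at 0.08 ± 0.11 with ABA (adjusted p = 0.604).

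The remaining question was whether glucose altered the response to ABA. With both compounds against ABA alone, 0 of 31 members were called in either direction by edgeR, and 4 had an unadjusted p below 0.05. DESeq2 also called 0. The background was 4.4% of all genes called, 1.16% higher and 3.24% lower, and the medians were 0.01 for members and 0 for all genes. The interaction likewise gave 0 calls by edgeR, with 4 unadjusted p values below 0.05, against 5.29% of genes called, 3.23% higher and 2.07% lower. DESeq2 returned an adjusted p for only 22 members in the interaction, and called 0 of them. When ABA was added to glucose, 1 member rose and 4 fell (MYB74, and MYB120, MYB34, MYB92 and MYB30), against 11.8% of genes called, 5.82% higher and 5.95% lower. The members' median log2 fold change was then -0.03 and that of all genes 0.01. The median standard error of a member in the interaction was 0.27 on the log2 scale, and the absence of calls does not show that the members responded alike with and without glucose. Leaving out ABA replicate 1 or 2 gave 1 call, MYB96, lower with both compounds than with ABA (adjusted p = 0.0187 and 0.0454). Both fits keep ABA replicate 3, in which MYB96 was high, and without that library the difference was -0.39 (adjusted p = 0.205). Leaving out glucose replicate 4 left 2 of the 4 falls on adding ABA to glucose.

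**Figure D5:**
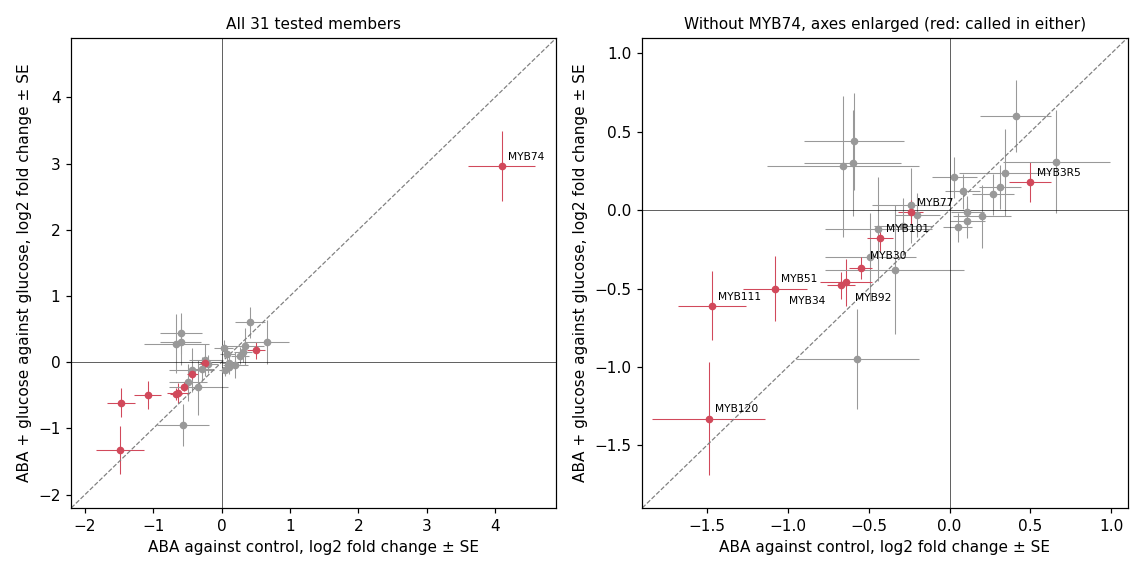
Log2 fold change with its standard error for ABA against control (horizontal) and for ABA plus glucose against glucose (vertical), 1 point per tested member, red where called in either comparison; the dashed line marks equal change and the right panel leaves out MYB74. The 2 axes share no library, and MYB74 lies at 4.1 and 2.96.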

How the data were processed

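Per the submitters' processing notes, reads were processed with Trimmomatic 0.38, kallisto 0.44.0 and sleuth; the genome build, annotation and use of strand are not given in the sources used here. The authors deposited a table of estimated counts per gene, in which 4057 genes have decimals, and a column named TPM per library, whose signal sums to between 945626 and 1037286 and so was scaled in a way the file headers do not state. A further 16 columns of other samples were not used. Counts were rounded and tested in R 4.3.3 with edgeR 4.0.16 (quasi-likelihood F-test, TMM scaling, 1 fit of the 4 group means to 16 libraries). The filterByExpr minimum count of 10 kept 17083 genes and removed 10572. Standard errors are the log2 fold change divided by the root of F. DESeq2 1.42.0 and limma 3.58.1, on log2 of TPM plus 0.5, were alternatives. The edgeR steps were tested on simulated data.

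Genes, gene lists and cell markers were chosen with earlier results of these data known. Members were named when among the 6 largest called rises or falls of a comparison, among the 8 highest in TPM, or for a known role. The common biological coefficient of variation was 7.88%. Same-numbered libraries were not paired: their deviations from the group means correlated at -0.155 to 0.113, above 0.1 in 2 of 24 pairs. Counts of any 2 replicates differed by a chi-square of 1.79 or more per gene, where sampling noise alone gives 1, so each library was counted as 1 sample. Pairs that include ABA replicate 3 lay at 20 to 23 per gene, and all other pairs at 8.48 or less.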

Additional observations from a re-analysis of the deposited data

Results flagged for a closer look

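Single libraries stood apart from the other 3 of their group for 6 members, by a gap that exceeds Dixon's 95% critical value as a share of the group's range. The test was made on 92 groups of 4 libraries and found 8, and chance alone gives about 1 in 20. Control replicate 1 accounts for 4 of them: MYB77 was at 66.5 CPM there and at 53.3 to 54.2 in the other control libraries, AT3G24490 at 40.7 against 32 to 33, MYB106 at 8.59 against 11.3 to 11.8, and MYB34 at 27.2 against 30.8 to 31.4. MYB77 and AT3G24490 were thus high and MYB106 and MYB34 low in that library. AT2G44730 was at 58.4 CPM in ABA replicate 3 and at 31.5 to 35 in the other ABA libraries. MYB7 was at 2.57 CPM in glucose replicate 1 and at 1.41 to 1.55 in the others. Among the libraries with both compounds, MYB106 was at 11.9 CPM in replicate 3 against 10.3 to 10.5, and AT3G24490 at 32.2 in replicate 4 against 36.3 to 36.8.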

How the results depend on the processing

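No direction of a called member reversed under any alternative. With glucose against control, 0 members were called higher, but 1 without the filter on low counts and 1 with only the compared groups in the fit; the 1 called lower, MYB77, became 0 without control replicate 1 or glucose replicate 2, 3 or 4, a range of 0 to 1. With ABA against control, 2 members were called higher, and leaving out 1 library gave 2 to 4, with 4 without ABA replicate 2; 8 were called lower, and 7 to 9 under the alternatives. With both compounds against control, the 1 called higher became 2 with DESeq2 and 2 without the filter. It became 0 with only the compared groups, a fit whose filter left MYB74 out. The call added here by DESeq2 was of a member outside the 31 tested. The same holds for the calls added without the filter, here and with glucose. With both compounds against ABA, 0 were called lower, and 0 to 1 without 1 library. The 1 was MYB96 without ABA replicate 1 or 2, fits that keep ABA replicate 3. With both compounds against glucose, 4 were called lower, and 2 to 4 without 1 library, 2 without glucose replicate 4. The cause of the other changes was not tested. A replicate block for the label numbers left 3 called lower in that last comparison in place of 4 (MYB92 at -0.46, adjusted p = 0.0655) and changed no other call; 4 of 16 libraries correlated best with their own number. Levels on the TPM and CPM scales are both given, and no further level alternative was run. Without ABA replicate 3, an alternative chosen after seeing the data, 8 of 8 glucosinolate genes, 8 of 8 wax genes and 6 of 7 flavonoid genes (5 higher, 1 lower) were called with ABA in the directions given. Depth limits the rare members: 3 counts are 0.171 to 0.325 CPM, so MYB74 in the control is not resolved from 0.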

Other observations

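AT3G61250 was singled out after its values were seen. The deposited name and the RefSeq symbol are those of MYB17, while the deposited description names MYB41. Its estimated counts were 14, 9, 15 and 10 in the control, 19, 17, 25 and 17 with glucose, 19, 1, 5 and 9 with ABA, and 6, 13, 17 and 10 with both compounds. Every glucose library was above every control library. The log2 fold change of MYB17 with glucose was 0.77 ± 0.32 (edgeR adjusted p = 0.127), and adding ABA to glucose gave -0.95 ± 0.32 (adjusted p = 0.0636). With only the compared groups in the fit both were past the threshold, at 0.78 (adjusted p = 0.0413) and -0.96 (adjusted p = 0.0181).

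With ABA, OLEO1, which coats the oil bodies of seeds, rose by 4.08 ± 0.1 on the log2 scale. CRU3, a seed storage protein, rose by 1.27 ± 0.14 with ABA. Both fell with glucose alone, with log2 fold changes of -0.75 ± 0.12 and -0.76 ± 0.14. Of the 6 embryo and seed markers listed, 2 were called higher and 1 lower with ABA, with a median of 0.02. MAN7, an endosperm mannanase, rose by 1.54 ± 0.077 with ABA and by 0.61 ± 0.078 with glucose. It was the 1 called of the 4 endosperm markers listed in each of these comparisons.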
